A study of Caenorhabditis elegans with 14 samples.

Results

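The comparison described here set *hrpk-1(zen17)* L4 larvae against wild type L4 larvae of *C. elegans*, at the level of mature miRNA strands. Of the 371 strands in the count table, 228 had at least 10 counts in at least 3 of the 6 L4 libraries of these genotypes and were tested, 147 guide strands and 81 star strands. Of the 143 strands that did not reach this level, 43 had 0 counts in all 6 libraries and 27 reached 10 counts in 1 or 2 of them. Among the least abundant strands inside the limit was miR-354, with 8, 19 and 8 counts in wild type and 10, 12 and 7 in the mutant. miR-1823, with 8, 8 and 10 counts in wild type and 7, 9 and 13 in the mutant, lay just outside. These 6 libraries are part of a series of 14, which asked whether the RNA-binding protein HRPK-1 affects miRNA levels in embryos and larvae.

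Both groups had the N2 strain background, were grown at 20 °C on plates with OP50 bacteria and were collected as L4 larvae, the last larval stage before the adult. Wild type animals carried no *hrpk-1* mutation. *hrpk-1(zen17)* is a CRISPR/Cas9 deletion of the *hrpk-1* locus that the study describes as a null allele, and it was studied as 1 outcrossed line. Each group had 3 replicates, and the labels do not say whether these were separate cultures, so p-values measure the spread between these libraries, which may be technical. RNA came from whole animals, in which fewer cells of a type and less RNA per cell cannot be told apart. The libraries measured small RNAs and not *hrpk-1* mRNA, so the genotype labels could not be checked against the targeted gene.

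A miRNA is cut from a hairpin in a longer primary transcript, first by Drosha in the nucleus and then by Dicer in the cytoplasm, which leaves a short duplex. One strand of the duplex, the guide, is kept by an Argonaute protein such as ALG-1 and directs repression of target mRNAs, and the other, the star or miR* strand, is mostly discarded. HRPK-1 is the worm homolog of hnRNP K, a protein with KH domains that bind RNA, and proteins of this class can act on RNA processing in the nucleus as well as on mRNAs in the cytoplasm.

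The deposited values were read counts. Table totals were 15618264, 14926345 and 19762103 counts in wild type replicates 1 to 3 and 15112868, 15114802 and 18574237 in *hrpk-1(zen17)* replicates 1 to 3. Abundance is given as ppm, the count over the total of that library in the table, times 1000000, and 3 counts, the limit that a count of 0 allows, came to between 0.152 and 0.201 ppm. Stage markers separated the L4 libraries from the embryo libraries of the series. let-7-5p, a miRNA of late larvae, was at 11490 to 36361 ppm in the 6 L4 libraries and at 34.6 ppm or less in the embryo libraries of both genotypes. The 8 guide strands of the mir-35 family, which is made in oocytes and embryos, summed to 1402 to 3857 ppm at L4 and to 513588 ppm or more in embryos.

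Wild type replicate 2 stood apart from the other 5 libraries. On log2 CPM of the 228 strands, the first principal component (55.6% of variance) placed it at 12.8 and the others between -5.46 and -1.37. Of 152 strands with a mean of at least 100 counts, 15 were at least 2-fold above and 31 at least 2-fold below the mean of the other wild type libraries in replicate 2, against 3 and 5 in replicate 1 and 8 and 3 in replicate 3. The median SD of log2 CPM was 0.42 in wild type, 0.14 between wild type replicates 1 and 3 alone, and 0.27 in *hrpk-1(zen17)*. miR-1-3p was the most abundant strand in wild type replicate 2, with 35.3% of its counts, whereas miR-58-3p led the other 5 libraries with 19.2% to 37.2%. Results that rest on this library are given with and without it. The fit without it keeps the same 228 strands. Factors of TMM, the scaling used in the fits, were 1.08, 1.38 and 0.71 in wild type replicates 1 to 3 and 0.88, 1.21 and 0.89 in the mutant. The order and spread of libraries can therefore differ between ppm and TMM-normalized CPM.

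**Figure D1:**
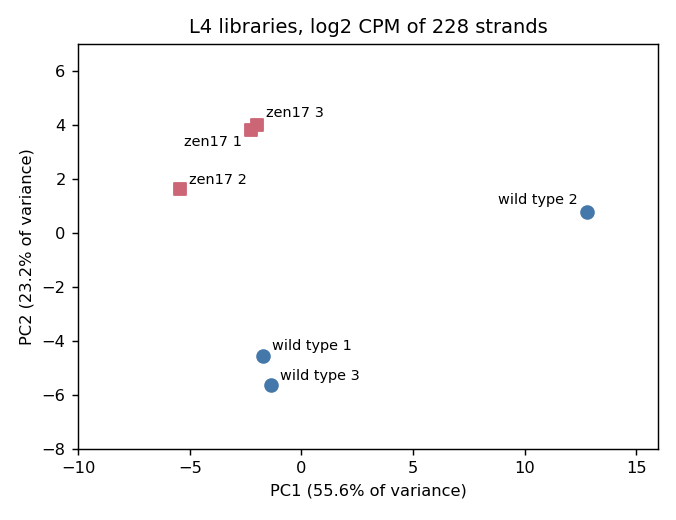
Principal components of log2 CPM over the 228 tested strands, with 1 point per library (circles wild type L4, squares *hrpk-1(zen17)* L4, numbers are replicates). Wild type replicate 2 lies at 12.8 on PC1 while the other 5 libraries lie between -5.46 and -1.37, and on PC2 wild type replicates 1 and 3 lie at -4.55 and -5.65, below the mutant libraries at 1.62 to 4.00.

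No strand passed the threshold of an adjusted p of 0.05 (edgeR's quasi-likelihood F test on TMM-scaled counts, adjusted by Benjamini-Hochberg, 0 of 228, 0%), and the smallest adjusted p was 0.177. At an unadjusted p under 0.05 there were 33 strands (14.5%), 20 higher in *hrpk-1(zen17)* (8.77%) and 13 lower (5.7%). Without wild type replicate 2, 8 strands passed the threshold (3.51%), 1 higher (0.439%) and 7 lower (3.07%), and 50 had an unadjusted p under 0.05 (21.9%). DESeq2 called 9 strands on all 6 libraries, 4 of them higher and 5 lower. Among the lower was the star strand miR-72-3p, at -1.05 (adjusted p = 0.0321 by DESeq2). The tools and libraries therefore gave different lists. Only miR-78 and miR-798 were called by DESeq2, without wild type replicate 2 and with total counts as the scale. Both were rare and lower in the mutant. miR-798 reached 10 counts in wild type libraries alone, so the count limit itself favoured a lower mutant value for it.

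The median log2 fold change was 0.04, with 122 strands above 0 (53.5%) and 106 below. TMM centres the fold changes, so this median cannot show how far strands differed. The median log2 fold change without its sign was 0.34. At least 2-fold differences were found for 11 strands that were higher (4.82%) and 14 that were lower (6.14%). For 86 of the 228 strands, the 95% confidence interval of the fold change lay within 2-fold in both directions. The balance depended on how libraries were scaled. RLE size factors moved the median log2 fold change by -0.10 and total counts by -0.11. The split at an unadjusted p under 0.05 was 20 higher and 13 lower with TMM (60.6% higher), and 16 and 20 with RLE (44.4% higher). The groups did not overlap in ppm for 34 strands (14.9%), 24 higher (10.5%) and 10 lower (4.39%). In TMM-normalized CPM, a scale added after the data were seen, they did not overlap for 57 (25%), 40 higher (17.5%) and 17 lower (7.46%).

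**Figure D2:**
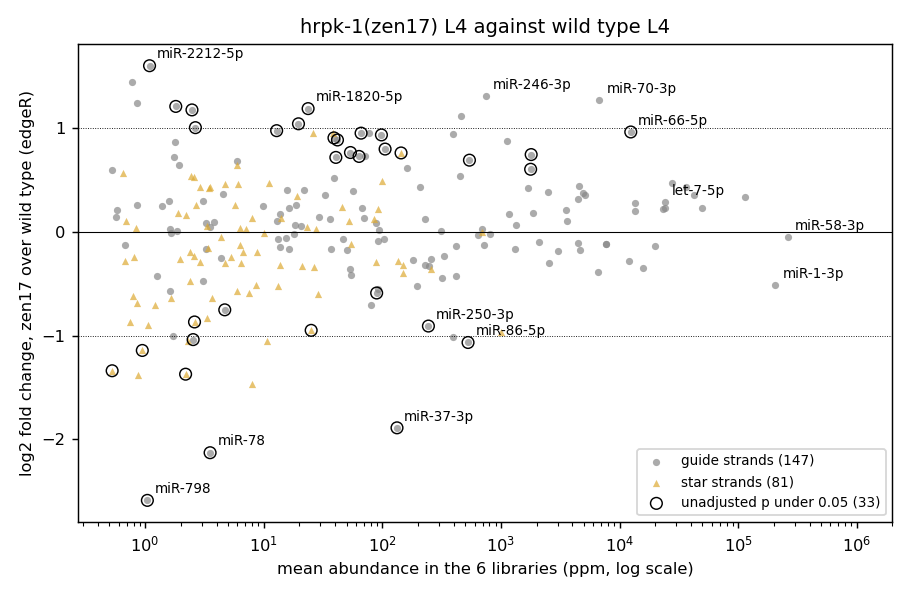
Log2 fold change of each of the 228 strands (*hrpk-1(zen17)* over wild type L4, edgeR) against its mean abundance in ppm over the 6 libraries on a log scale. Grey circles are guide strands, yellow triangles star strands, black rings the 33 strands with an unadjusted p under 0.05, and dotted lines 2-fold changes; all 11 points at least 2-fold higher are guides, and the lowest points are miR-798 and miR-78.

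The strands with the largest higher values in the mutant, among those that averaged 100 counts or more and whose groups did not overlap in ppm, were 8 strands between 1.91-fold and 2.41-fold. They were 7 guides and the star strand miR-240-5p. None of them passed the threshold.

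miR-70-3p led the 8 strands. The hairpin sits inside an intron of *pmp-5* and on its strand, on chromosome V at 6665536 to 6665635 of the WBcel235 assembly. Its abundance was 4799, 1188 and 5048 ppm in the wild type libraries and 8304, 11069 and 10120 ppm in the mutant libraries, each in the order of replicates 1 to 3. All mutant libraries were above all wild type libraries, and wild type replicate 2 was far below the other wild type libraries. The log2 fold change was 1.27 (SE 0.59, adjusted p = 0.339 by edgeR), and 0.71 (SE 0.24, adjusted p = 0.118) without wild type replicate 2. Its star strand miR-70-5p was also low in that wild type library, at 1.74 ppm against 7.24 and 6.07 ppm.

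miR-66-5p was the most abundant of the 8 strands. Its gene lies in an intron of *gcn-1*, whose product is a translational regulator, on chromosome III at 2173108 to 2173206. The guide was at 9442, 9143 and 6980 ppm in wild type and 13893, 20916 and 14225 ppm in the mutant. In ppm, wild type replicate 2 lay between the other wild type libraries here, and the lowest mutant library was above the highest wild type library. In TMM-normalized CPM, wild type replicate 2 was 1.41-fold below the mean of the other wild type libraries. The log2 fold change was 0.96 (SE 0.25, adjusted p = 0.177 by edgeR) and 0.74 (SE 0.21, adjusted p = 0.0642) without wild type replicate 2, and DESeq2 gave 0.87 (adjusted p = 0.0384).

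miR-1820-5p, from a gene between annotated genes on chromosome IV at 7767461 to 7767567, was at 17.2, 14.9 and 11.0 ppm in wild type and 25.1, 52.1 and 21.7 ppm in the mutant. The groups did not overlap, and *hrpk-1(zen17)* replicate 2 was far above the other mutant libraries. The log2 fold change was 1.19 (SE 0.31, adjusted p = 0.177 by edgeR), or 0.96 without wild type replicate 2, and 1.09 by DESeq2 (adjusted p = 0.0384).

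miR-1829c-5p comes from an intron of *piki-1*, a phosphoinositide 3-kinase gene, on chromosome X at 15236362 to 15236423. Its abundance was 91.0, 74.8 and 43.5 ppm in wild type and 111, 159 and 110 ppm in the mutant. Here too the mutant libraries were all above the wild type libraries, with replicate 2 the highest. Its log2 fold change was 0.93 (SE 0.26, adjusted p = 0.177 by edgeR) and 0.84 by DESeq2 (adjusted p = 0.0457).

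miR-357-3p and miR-358-3p come from neighbouring hairpins on chromosome V, at 8580542 to 8580651 and 8580858 to 8580967, opposite to the coding strand in an intron of *symk-1*, a gene of mRNA 3′ end formation. miR-357-3p was at 60.0, 30.1 and 41.1 ppm in wild type and 63.1, 129 and 73.8 ppm in the mutant. miR-358-3p was at 15.2, 9.85 and 12.5 ppm and 19.6, 35.1 and 25.4 ppm. Both guides were highest in *hrpk-1(zen17)* replicate 2 and lowest in wild type replicate 2. Their log2 fold changes were 0.95 (SE 0.38) and 1.04 (SE 0.35), and 0.55 and 0.67 without wild type replicate 2.

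miR-59-3p was at 385, 139 and 262 ppm in wild type and 472, 596 and 492 ppm in the mutant, a log2 fold change of 0.94 (SE 0.44) that was 0.46 without wild type replicate 2. The star strand miR-240-5p was at 24.4, 8.11 and 18.1 ppm and 28.5, 47.8 and 28.5 ppm, a log2 fold change of 0.95 (SE 0.47) that was also 0.46 without that library. For both strands the wild type library that stood apart held the lowest value.

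**Figure D3:**
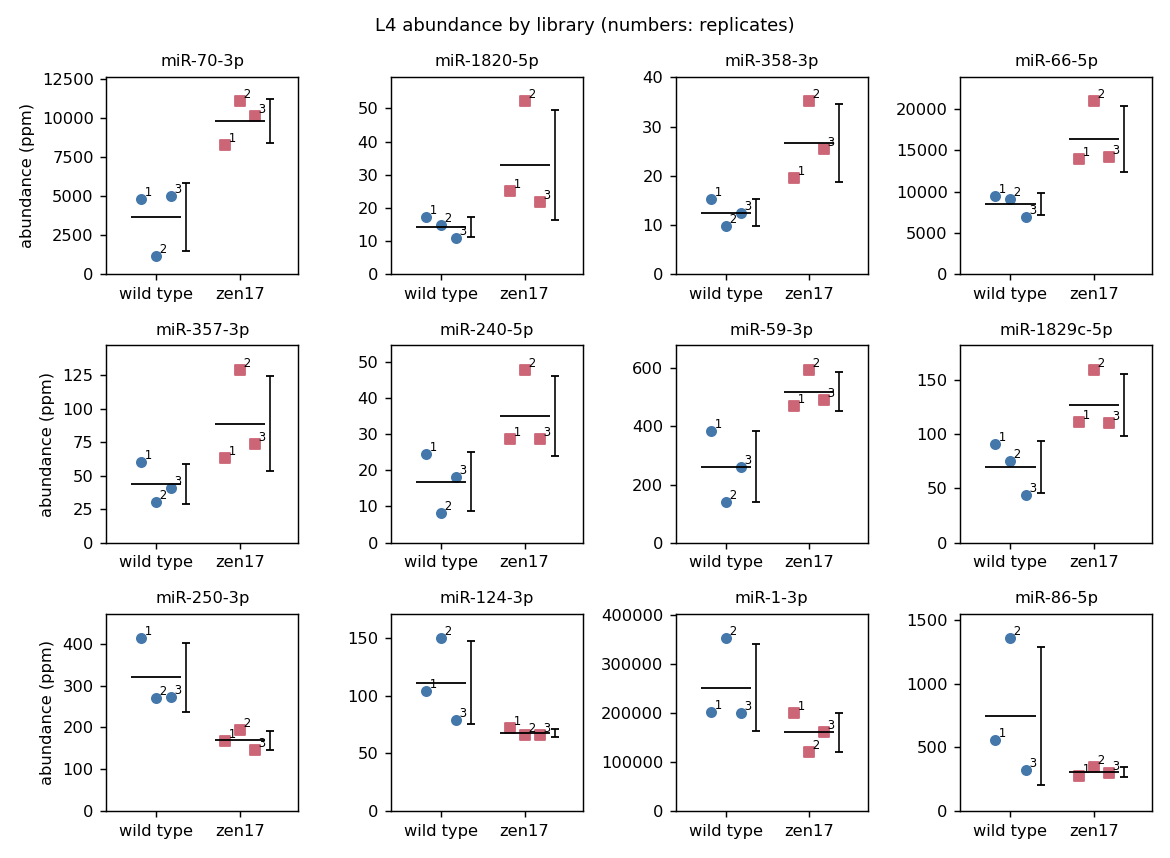
Abundance in ppm (linear axes from 0) in each L4 library for the 8 strands with the largest higher values, the 3 that were lower with no overlap in ppm, and miR-86-5p. Numbers are replicates, horizontal lines group means and vertical bars ± SD (n = 3 libraries each); in the first 11 panels the groups do not overlap, and miR-86-5p was at 1363 ppm in wild type replicate 2 and between 272 and 347 ppm in the mutant.

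Only 3 strands with a mean of at least 100 counts were lower in every mutant library than in every wild type library. miR-250-3p, a guide of the mir-2 family, was the one with the largest difference, and its gene lies between annotated genes on chromosome V at 11769917 to 11770015. It was at 415, 271 and 274 ppm in wild type and 168, 193 and 146 ppm in the mutant. The mutant libraries were close to each other and below all wild type libraries. This was a log2 fold change of -0.91 (SE 0.31, adjusted p = 0.212 by edgeR). Without wild type replicate 2 it was -1.25 (SE 0.21, adjusted p = 0.00561), past the threshold.

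miR-124-3p, a conserved miRNA of sensory neurons in the worm, comes from an intron of *trpa-1*, which encodes an ion channel, on chromosome IV at 11871738 to 11871833. It was at 104, 150 and 78.9 ppm in wild type and 72.0, 66.2 and 65.6 ppm in the mutant, with a log2 fold change of -0.59 (SE 0.25, adjusted p = 0.322 by edgeR). In ppm the mutant libraries lay within a narrow range just below the lowest wild type library. In TMM-normalized CPM the wild type libraries were the ones closer together, and the mutant libraries were more spread. miR-1-3p, the conserved miRNA of muscle, was at 201977, 353490 and 200397 ppm in wild type and 199855, 119728 and 161723 ppm in the mutant. The highest mutant library was just below the lowest wild type library, and in TMM-normalized CPM the groups overlapped. Its log2 fold change was -0.51 (SE 0.34, adjusted p = 0.506 by edgeR).

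miR-86-5p comes from an intron of Y56A3A.7 on chromosome III, at 11936637 to 11936734. It was at 562, 1363 and 322 ppm in wild type and 272, 347 and 302 ppm in the mutant. The groups overlapped in ppm, since wild type replicate 3 was below mutant replicate 2, and did not overlap in TMM-normalized CPM. On the log2 scale the fold change was -1.07 (SE 0.33, adjusted p = 0.212 by edgeR), -0.72 (adjusted p = 0.0654) without wild type replicate 2 and -1.18 (adjusted p = 0.0384) by DESeq2. Its star strand miR-86-3p was at 1.41, 1.61 and 0.961 ppm in wild type and 0.728, 0.595 and 0.377 ppm in the mutant, on 7 to 11 counts per mutant library. Both strands of this hairpin were thus lower by a similar amount, the star by -1.14 (SE 0.44).

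The largest lower values belonged to rare guides, which were singled out after their values were seen. miR-798, whose gene lies opposite to *ilcr-1* in an intron on chromosome IV at 14277312 to 14277387, had 40, 11 and 40 counts in wild type and 3, 8 and 4 in the mutant. It passed the count limit through the wild type libraries alone, a selection that favours a lower value in the mutant. In ppm the counts were 2.56, 0.737 and 2.02 against 0.199, 0.529 and 0.215, with no overlap. Its log2 fold change was -2.59 (SE 0.69, adjusted p = 0.177 by edgeR), and -3.11 (SE 0.42, adjusted p = 0.00161) without wild type replicate 2. miR-78 was at 6.66, 3.48 and 6.63 ppm in wild type and 0.463, 3.24 and 0.700 ppm in the mutant. Mutant replicate 2 was close to wild type replicate 2, while the other mutant libraries were well below. The log2 fold change of miR-78 was -2.13 (SE 0.66, adjusted p = 0.212 by edgeR), and -2.53 (adjusted p = 0.0150) without wild type replicate 2.

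The other strands called without wild type replicate 2 were the guide miR-4936 (-1.40), the star strands miR-39-5p (-1.95), miR-41-5p (-1.803) and miR-51-3p (-1.55), all lower, and the guide miR-2209a-3p, which was higher (1.58). miR-51-3p was at 23.6, 6.03 and 12.7 ppm in wild type and 5.56, 11.6 and 4.68 ppm in the mutant. On all 6 libraries its log2 fold change was -1.05 (SE 0.53, adjusted p = 0.340 by edgeR), and its groups overlapped. With total counts as the scale, the 3 calls were miR-798, miR-78 and the star strand miR-65-3p. The last was at 31.2 ppm in wild type replicate 2 and between 2.31 and 4.96 ppm in the other 5 libraries, and without that library its log2 fold change was -0.11.

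The 10 most abundant guides of wild type L4 larvae carried most of the counts. Their log2 fold changes ran from -0.51 for miR-1-3p to 0.47 for miR-228-5p (SE 0.24, adjusted p = 0.347 by edgeR). miR-58-3p, the most abundant member of the worm bantam-related family, was at 276700, 129776 and 371932 ppm in wild type and 296199, 191867 and 308373 ppm in the mutant. The mutant libraries lay inside the wild type range, and the log2 fold change was -0.05 (SE 0.56), or -0.57 without wild type replicate 2. miR-71-5p, which promotes lifespan, was at 21288, 32971 and 14632 ppm in wild type and 19994, 38295 and 18574 ppm in the mutant, with a log2 fold change of 0.23 (SE 0.26). Its wide spread in ppm was similar in both groups. miR-81-3p, miR-82-3p and miR-80-3p, the other abundant members of that bantam-related family, were at 0.23, 0.35 and 0.22, and at 0.13, 0.05 and -0.16 without wild type replicate 2. miR-55-3p, of the mir-51 family, was at -0.14, and at -0.05 without it.

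The let-7 family times cell fates in larval development, with miR-48, miR-84 and miR-241 acting early and let-7 late. All 7 of its guides were tested, and 1 had an unadjusted p under 0.05 (14.3%, against 14.5% over all strands and 18.4% over all guides). This was miR-795-5p, at 0.88 (SE 0.29, adjusted p = 0.212 by edgeR). The median log2 fold change of the family was 0.28, against 0.04 over all strands and 0.13 over all guides. Without wild type replicate 2 the family median was -0.06. let-7-5p was at 29966, 11490 and 21644 ppm in wild type and 23176, 36361 and 21991 ppm in the mutant. The groups overlapped, and the log2 fold change of 0.28 (SE 0.43) was -0.18 without wild type replicate 2. miR-48-5p was at 104197, 64718 and 123694 ppm and, in the mutant, at 129286, 138721 and 124462 ppm. In ppm the mutant libraries were all above wild type, by a small margin, and in TMM-normalized CPM the groups overlapped. The log2 fold change of miR-48-5p, 0.34 (SE 0.43), was likewise -0.10 without wild type replicate 2. miR-241-5p, which shares a cluster with miR-48, was at -0.39 (SE 0.37) and at -0.79 (SE 0.21, adjusted p = 0.0518) without it. miR-84-5p was at 0.45 (SE 0.23) and 0.31. The summed abundance of the 7 guides was 130074 ± 37958 ppm in wild type and 169180 ± 17612 ppm in the mutant (SD, n = 3 each). The mean log2 sum was 0.42 higher in the mutant, and 0.15 higher without wild type replicate 2, whose sum was 86419 ppm against 148514 and 155289 ppm in the other wild type libraries.

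lin-4-5p, which ends early larval programmes by repressing *lin-14* and *lin-28*, was at 3574, 4390 and 2029 ppm in wild type and 2237, 3220 and 2672 ppm in the mutant. These ranges overlapped, with a log2 fold change of -0.19 (SE 0.22). Its relative miR-237-5p was at 0.42 (SE 0.25).

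The mir-35 family is needed for embryonic development, and at L4 its 8 guides were scarce and spread widely. Their median log2 fold change was -0.25, and -0.07 without wild type replicate 2. Of the 8, 1 had an unadjusted p under 0.05 (12.5%, against 14.5% over all strands and 18.4% over all guides). miR-37-3p was at 56.3, 219 and 338 ppm in wild type and 45.8, 76.9 and 62.0 ppm in the mutant. Wild type replicate 1 lay within the mutant range, and the other wild type libraries were far above it. The log2 fold change was -1.89 (SE 0.65, adjusted p = 0.212 by edgeR), and -1.99 by DESeq2 (adjusted p = 0.0384). miR-35-3p had the same pattern, at 220, 643 and 696 ppm against 205, 370 and 246 ppm, with a log2 fold change of -1.02 (SE 0.48). miR-39-3p was at 51.2, 121 and 149 ppm against 58.8, 96.0 and 79.2 ppm, again with wild type replicate 1 low, and at -0.55 (SE 0.47). miR-40-3p differed from these, and was at 369, 384 and 343 ppm and 436, 629 and 522 ppm, with no overlap and a log2 fold change of 0.54 (SE 0.27), or 0.29 without wild type replicate 2. miR-42-3p was at 686, 2461 and 509 ppm against 1244, 981 and 1151 ppm, and its log2 fold change of 0.17 (SE 0.42) was 0.70 (SE 0.24, adjusted p = 0.121 by edgeR) without wild type replicate 2. The family sum was 2440 ± 1271 ppm in wild type and 2093 ± 84.0 ppm in the mutant (SD, n = 3 each), so the spread of the wild type libraries was far larger than the difference. The difference in mean log2 sum, mutant minus wild type, was -0.09, and 0.30 without wild type replicate 2.

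The star strands of the mir-35 to mir-41 cluster were also described after their values were seen. The 3 that were tested, miR-36-5p, miR-39-5p and miR-41-5p, were at -1.34, -1.38 and -1.37, on low counts. miR-36-5p had 12, 13 and 13 counts in wild type and 4, 5 and 5 in the mutant. This star passed the count limit through the wild type libraries alone, a selection that favours a lower mutant value. Its guide miR-36-3p was at 0.06 (SE 0.33). miR-41-5p was at 4.93, 1.88 and 2.58 ppm against 0.794, 2.12 and 0.861 ppm, where mutant replicate 2 lay inside the wild type range.

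The mir-51 family, needed for embryonic development, had 0 of 6 guides at an unadjusted p under 0.05, with a median of -0.12 and values from -0.35 to 0.01. The bantam-related mir-58 family had 0 of 4 tested guides at that level, with a median of 0.22, or -0.06 without wild type replicate 2. miR-1834, also listed in that family, did not reach the count limit.

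All 5 guides of the mir-63/64 family were above 0, with a median of 0.43 (0.03 without wild type replicate 2). Of the 5, 2 had an unadjusted p under 0.05 (40%, against 14.5% over all strands and 18.4% over all guides). Without wild type replicate 2 miR-66-5p alone was at this level. On all 6 libraries these were miR-66-5p and miR-63-3p (0.60, SE 0.26, adjusted p = 0.322 by edgeR), the latter at 0.36 without wild type replicate 2. The genes of miR-64, miR-65, miR-66 and miR-229 lie side by side in *gcn-1*, yet miR-66-5p was at 0.96 while miR-64-5p, miR-65-5p and miR-229-5p were at 0.20, 0.43 and 0.13. Without wild type replicate 2 the same values were 0.74 against -0.22, 0.00 and 0.03. With RLE size factors or total counts as the scale, all 5 guides were again above 0, and the medians of the let-7, mir-35, mir-51, mir-58 and mir-63/64 families kept their sign. The family sum was 52834 ± 17018 ppm in wild type and 75787 ± 19148 ppm in the mutant (SD, n = 3 each). The mean log2 sum differed by 0.54, mutant minus wild type, and by 0.33 without wild type replicate 2.

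**Figure D4:**
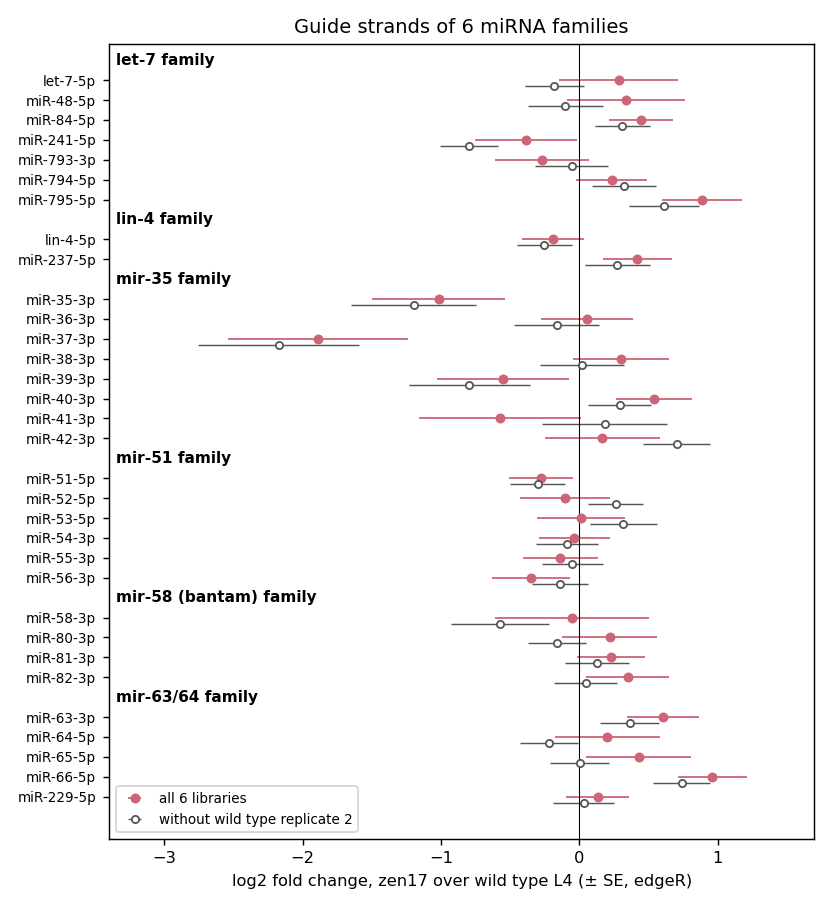
Log2 fold changes (± SE, edgeR) of the tested guide strands of 6 miRNA families, with filled red points for all 6 libraries and open grey points for the fit without wild type replicate 2. miR-37-3p has the lowest value at -1.89 and miR-66-5p the highest at 0.96, and let-7-5p, miR-48-5p and miR-80-3p lie on opposite sides of 0 in the fits with and without that library.

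Among tissue markers, the 3 neuronal guides miR-124-3p, lsy-6-3p and miR-791-3p summed to between 93.7 and 186 ppm in wild type and between 90.0 and 97.7 ppm in the mutant, of which miR-124-3p made up most. lsy-6-3p, which sets the identity of a left taste neuron, was at 0.07 (SE 0.30), a value below 0 with RLE size factors or total counts as the scale. miR-791-3p, a miRNA of sensory neurons, was at 6.15, 4.02 and 3.85 ppm in wild type and 7.68, 7.81 and 6.46 ppm in the mutant. Its groups did not overlap, and its log2 fold change was 0.68 (SE 0.34), or 0.34 without wild type replicate 2. The intestinal miR-60-3p was at 4454, 7554 and 3279 ppm in wild type and 4250, 4619 and 3472 ppm in the mutant. In ppm, wild type replicate 2 held the highest values of miR-1-3p, miR-124-3p, lsy-6-3p and miR-60-3p among the 6 libraries. It held the lowest of let-7-5p, but not the highest of miR-791-3p. In TMM-normalized CPM it was only 1.09-fold and 1.05-fold above the mean of the other wild type libraries for miR-1-3p and miR-124-3p. For lsy-6-3p and miR-60-3p it was 1.56-fold and 1.25-fold above, and for let-7-5p 3.51-fold below. Whether tissue or stage differences between libraries had a part in the results was not tested.

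By median fold change, stars lay below guides with each scaling, and how far guides leaned above 0 depended on the scaling. The 147 guides had a median log2 fold change of 0.13, with 90 above and 57 below 0, and the 81 stars a median of -0.20, with 32 above and 49 below. At an unadjusted p under 0.05 there were 19 guides higher and 8 lower (18.4%), against 1 star higher and 5 lower (7.41%). Without wild type replicate 2 the medians were 0.13 and -0.25. They were 0.03 and -0.30 with RLE size factors, and 0.06 and -0.27 with total counts as the scale. Guides above 0 then numbered 78 of 147 with RLE and 80 with total counts, and stars above 0 numbered 25 of 81 with either. Stars made up 0.388%, 0.579% and 0.243% of counts in wild type and 0.275%, 0.392% and 0.257% in the mutant.

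For 79 miRNAs both strands were measured in the same hairpin, and their guide to star ratio was tested with limma on log2 ratios. The ratio was higher in *hrpk-1(zen17)* for 58 of 79 (73.4%), by a median of 0.37 on the log2 scale, or 0.30 without wild type replicate 2. No ratio passed the threshold (0 of 79, 0%), the smallest adjusted p was 0.137, and 8 ratios were at an unadjusted p under 0.05 (10.1%), of which 7 were higher and 1 was lower. Groups did not overlap for 15 higher ratios (19%) and 3 lower ones (3.8%). The median log2 ratio was 5.62, 5.32 and 5.91 in wild type and 5.99, 5.94 and 5.93 in the mutant. Wild type replicate 3 was therefore next to the mutant libraries on this measure, and wild type replicates 1 and 2 below them. Pairs of 1 library share its composition, so they are not independent replicates.

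The largest higher ratio among the 3 with the smallest p was that of miR-1820. Its log2 ratio was 2.53, 2.003 and 2.47 in wild type and 3.55, 4.69 and 3.68 in the mutant, a difference of 1.64 (SE 0.43, adjusted p = 0.137 by limma). The guide was higher while the star was at 46, 55 and 39 counts against 32, 30 and 31. For miR-36 the ratio was 4.27, 4.65 and 5.01 in wild type and 5.997, 5.94 and 6.19 in the mutant. This was a difference of 1.40 (SE 0.40, adjusted p = 0.137 by limma), with the guide at 0.06 and the star at -1.34. The star reached 10 counts in wild type libraries alone, so the count limit favoured a higher mutant ratio for this pair. miR-57, which acts in posterior patterning, differed by 1.25 (SE 0.40, adjusted p = 0.197 by limma), with its guide miR-57-5p at 0.74 and its star miR-57-3p at -0.52. Its log2 ratio was 7.07, 6.80 and 7.27 against 8.16, 8.67 and 8.05, with no overlap.

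In the other direction, miR-75 differed by -1.13 (SE 0.45, adjusted p = 0.278 by limma). The guide had 334, 318 and 203 counts in wild type and 147, 373 and 209 in the mutant, and the star 504, 272 and 472 against 440, 1494 and 554. The strand listed as the star was thus the more abundant in 5 of 6 libraries. miR-56 was at -0.74 (SE 0.39) and miR-83 at -0.54 (SE 0.40). Directions were mixed over the 79 pairs, with both strands higher for 23 and both lower for 22, the guide higher and the star lower for 25, and the reverse for 9.

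**Figure D5:**
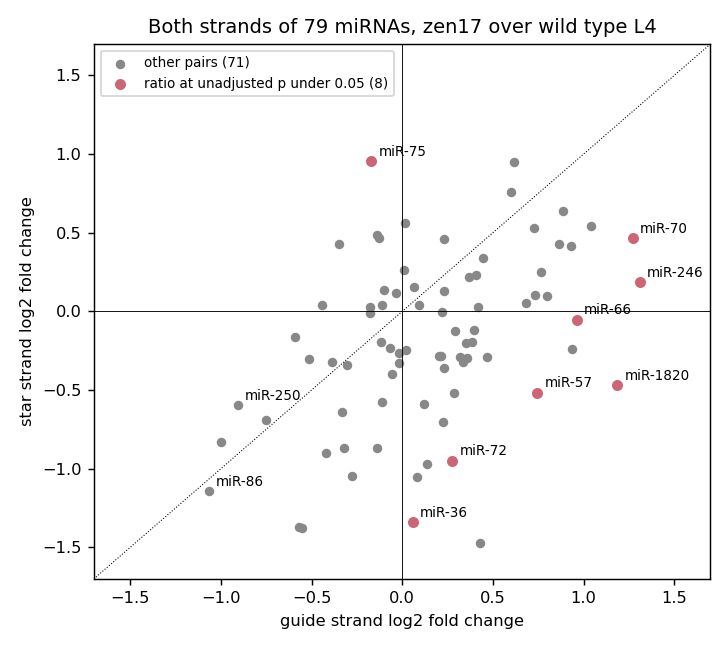
Log2 fold change of the star strand against that of the guide strand of the same hairpin for 79 miRNAs (*hrpk-1(zen17)* over wild type L4, edgeR). Red points are the 8 miRNAs whose guide to star ratio had an unadjusted p under 0.05 (limma) and the dotted line marks equal change; 7 of the 8 lie below it and miR-75 above it.

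Gene positions were found for 143 of the 149 miRNAs with a tested strand, 142 by name in the Ensembl release 115 annotation of WBcel235 and 1 through RefSeq. On chromosome X, 8 of 49 guides (16.3%) had an unadjusted p under 0.05, against 18.4% of all 147 guides. All 8 were higher, while among all guides at this level 19 were higher and 8 lower. The median log2 fold change of the 49 guides was 0.23, or 0.13 with RLE size factors and 0.12 with total counts as the scale. For the 32 guides from introns on the strand of the host gene the median was 0.16, and for the 87 guides between genes 0.14, both close to the 0.13 of all guides. Some pairs of hairpins within 5000 bases of each other, chosen after their values were seen, had values of the same sign. Others, such as the guides of miR-48 and miR-241, had opposite signs. miR-1819-3p and miR-2212-5p, neighbours on chromosome X, were at 0.90 (SE 0.23) and 1.60 (SE 0.43), and miR-1819-3p, at 28.3, 39.5 and 18.3 ppm against 49.2, 55.8 and 43.5 ppm, was called by DESeq2 (0.80, adjusted p = 0.0384). miR-2212-5p was rare, at a mean of 0.57 ppm in wild type and 1.61 ppm in the mutant. The guides of miR-61 and miR-250 were both below 0, at -0.30 and -0.91. Hairpins of 1 cluster can share a primary transcript, so their values are not independent.

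The *hrpk-1(zen17)* difference at L4 was also set against that in embryos, in 1 model over 12 libraries, which asked whether the mutation acts alike at both stages. Of 250 strands, 12 passed the threshold for a difference between stages (4.8%), and 11 of these belong to the 228 strands. For most of them the L4 value was near 0 and the embryo value was not, as for lin-4-5p, at -0.21 (SE 0.26) in L4 larvae and 2.37 (SE 0.31) in embryos. The embryo value of lin-4-5p rests on 23, 18 and 10 counts in the wild type embryo libraries. For miR-70-3p the 2 stages had opposite signs. Its value was 1.23 (SE 0.51) at L4 and -2.51 (SE 0.53) in embryos in this model, a difference of 3.73 (SE 0.73, adjusted p = 0.00374 by edgeR).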

How the data were processed

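Small RNA was size selected on gels, made into libraries with the NEXTflex Small RNA-Seq Kit v3 and sequenced on an Illumina NextSeq. The authors deposited raw read counts per miRNA strand. The submitters' processing notes name cutadapt 1.15 and Bowtie, and the genome build, the miRNA annotation and the handling of reads that match several miRNAs are not given in the sources used here. The miR-44-3p and miR-45-3p counts are nearly identical, as are those of the stars miR-1829b-3p and miR-1829c-3p, so each of these is uncertain. One protocol text in the labels speaks of mixed stages, while the stage label is L4.

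From these counts, the 228 strands that reached 10 counts in 3 or more of the 6 libraries were fitted with edgeR 4.0.16 in R 4.3.3 (TMM factors, quasi-likelihood test, prior count 2 for log2 CPM), and p-values were adjusted by Benjamini-Hochberg with a threshold of 0.05. SEs were derived from the test statistic. Guide to star ratios used limma 3.58.1 with a pseudocount of 0.5. The stage difference used 250 strands in 12 libraries. Family lists are described by counts and medians. Named strands are the 8 highest and 8 lowest by fold change that averaged 100 counts or more without overlap in ppm (3 qualified as lower), the 10 most abundant guides, strands called without wild type L4 replicate 2, 3 ratios per direction, family members, and 7 miRNAs the study names. Members and lists were chosen with earlier results of these data known. The tests were tested on simulated data. Alternatives were DESeq2 1.42.0, other scales and filters, all 14 libraries in 1 fit, a replicate block and leaving out each library. The limit set by 3 counts covers counting error only. Figures were drawn with matplotlib.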

Additional observations from a re-analysis of the deposited data

Results flagged for a closer look

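The difference between the *hrpk-1(zen17)* effect at L4 and that in embryos, tested as an interaction term in edgeR, passed an adjusted p of 0.05 for 12 strands. Strands whose difference was below 0 had a larger increase in embryos. These were miR-239a-5p (-4.95), its star miR-239a-3p (-3.10), miR-230-3p (-3.77), miR-2208b-3p (-3.64), miR-5592-3p (-3.37), lin-4-5p (-2.58), miR-238-3p (-2.24) and miR-34-5p (-2.23), all on the log2 scale. Except for miR-238-3p, they had at most 23 counts in any wild type embryo library, so the sizes of these differences are uncertain. The counts there were as low as 5, 4 and 0 for miR-239a-5p, 3, 3 and 1 for miR-2208b-3p and 2, 2 and 1 for miR-5592-3p. miR-238, miR-239 and miR-34 are known from stress responses. At L4 these 8 strands were between -0.36 for miR-239a-3p and 0.69 for miR-5592-3p.

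For miR-239b-5p (-8.12) and miR-784-5p (-5.79), wild type embryos had 0 counts in all 3 libraries, so these fitted values depend on the prior count and are no measure of size. miR-784-5p had 5, 15 and 2 counts in the mutant embryos. The difference was above 0 for miR-70-3p (3.73) and for the star strand miR-74-5p (3.12), which is too rare at L4 to be among the 228 strands. The calls of miR-74-5p, miR-5592-3p and miR-784-5p, which rest on few counts, were lost when most single libraries were left out.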

How the results depend on the processing

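The count of strands past the threshold was 0 in the reported fit, 9 with DESeq2, 3 with total counts as the scale, and 0 to 8 when single libraries were left out. All calls of the last kind came without wild type L4 replicate 2. The other alternatives gave 0. Same-numbered replicates did not deviate together (correlations of -0.18, -0.36 and -0.19), and the fit with the replicate number as a block called 0 strands, with 20 at an unadjusted p under 0.05. The guide to star ratio gave 0 calls in all 9 alternatives. The stage difference gave 19 calls with DESeq2 in place of 12, and 9 with the block.

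Of 26 named strands, 19 kept their direction in all 13 alternatives. Near 0, the other 7 did not. miR-58-3p was at 0.033 with total counts, 0.19 with the block, and -0.57 to 0.68 with single libraries left out. Ranges of the latter kind were -0.10 to 0.90 for miR-48-5p, -0.11 to 0.34 for miR-71-5p, -0.16 to 0.46 for miR-80-3p, -0.18 to 0.58 for let-7-5p, -0.091 to 0.70 for miR-42-3p and -0.064 to 0.23 for lsy-6-3p. With total counts miR-42-3p was at -0.11. lsy-6-3p was at -0.042 with DESeq2, -0.042 with RLE, -0.13 with total counts, -0.068 with a filter of at least 100 counts and -0.0023 with all 14 libraries. At least 2-fold higher strands numbered 11 in the reported fit, and 24, 3 and 20 without wild type L4 replicates 1, 2 and 3 respectively. At an unadjusted p under 0.05, lower strands numbered 29 without wild type L4 replicate 2, against 13. The cause of these shifts was not tested. With 3 libraries a group, the unadjusted 95% interval stayed within 2-fold for 86 of 228 strands and reached 2-fold in at least 1 direction for the others. The reported fit called no strand, whether its change was under 2-fold or not. The 11 strands at least 2-fold higher and the 14 at least 2-fold lower were among those not called.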
